A study of Mus musculus with 13 samples.

Results

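Transcription factors that give embryonic tissue its position along the body axis and the limb were followed through the reprogramming of mouse fibroblasts by small molecules. The set comprised every gene of the deposited table whose symbol begins with Hoxa, Hoxb, Hoxc, Hoxd, Tbx, Pax, Dlx, Lhx, Msx, Meis, Pbx, Prrx or the sine oculis homeobox prefix (as in Six4) followed by a number. These were 71 of 15176 genes: 9 Hoxa, 8 Hoxb, 7 Hoxc, 6 Hoxd, 10 Tbx, 8 Pax, 4 Dlx, 4 Lhx, 4 sine oculis, 4 Pbx, 3 Meis, 2 Msx and 2 Prrx genes. Further genes of these families were not analysed here.

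RNA had been sequenced from 13 libraries of 6 groups. The mouse embryonic fibroblasts (MEF, n = 3) were untreated and of strain C57xICR. The Oct4-GFP-negative cells (n = 2) came from such fibroblasts given the compound mix coded VC6TF and lacked fluorescence of the Oct4 reporter, Oct4 being the product of Pou5f1. Picked clusters of Oct4-GFP-positive cells (n = 1) and picked Oct4-GFP-positive colonies (n = 1), both of fibroblasts given VC6TF+Z, made up the next 2 groups. Embryonic stem cells of line R1 (ESC, n = 4, strain 129) were untreated, and lines 6 and 11 of compound-induced pluripotent stem cells (CiPSC, n = 2, strain C57xICR) had been made with VC6TFMB+Z. The stem cell lines were grown on mitomycin C-treated MEF, so their RNA can include that of fibroblast feeders. Strain and cell state cannot be told apart between ESC and the other groups.

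Values are RPKM, reads per kilobase scaled to library depth. In 10 libraries they are per kilobase of gene span, introns included, with 8.89 to 17.68 M reads a library by estimate. In the CiPSC lines and ESC replicate 4 they are per kilobase of exon at unknown depth, so these 3 libraries are compared only with one another, and ESC elsewhere means replicates 1 to 3. The labels do not say that replicates came from separate cultures, and p-values measure only the spread between these libraries. Between bulk samples, fewer cells of a type and less RNA per cell cannot be told apart. The library labelled Oct4-GFP-positive clusters held 0.260 RPKM of Pou5f1, with 0 of 10 pluripotency markers at 1 RPKM or more. The colonies held 124 RPKM of Pou5f1, with 7 of 10 markers at that level. The markers under it were Nanog, Tdgf1 and Esrrb, at 0.0418, 0.258 and 0.483 RPKM in the colonies. In ESC these had 51.7 to 55.4, 53.6 to 61.8 and 2.31 to 2.81 RPKM. The 10 markers include Tbx3, itself a member of the set. A log2 change is of RPKM + 1, a gene was tested where at least 2 libraries reached 1 RPKM, and it was called at an adjusted p under 0.05 with a log2 change of 1 or more in size.

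Hox genes lie in 4 complexes, Hoxa on chromosome 6, Hoxb on 11, Hoxc on 15 and Hoxd on 2. Within a complex the genes are numbered from those used in the head and hindbrain, with low numbers, to those used in the trunk, tail and distal limb, with high numbers, and fibroblasts of adult and embryonic tissue retain the Hox pattern of the site they came from. Their proteins bind DNA together with the TALE homeodomain proteins Pbx and Meis. T-box, paired-box, sine oculis (Six4 and its relatives), Dlx, LIM-homeodomain, Msx and Prrx factors specify limb, heart, eye, muscle and craniofacial primordia, and Tbx3 is in addition part of the transcription network of naive mouse stem cells.

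Hox RNA was spread over all 4 complexes in the fibroblasts. Summed over the 30 Hox genes, the RPKM came to 31.57, 42.88 and 48.34 in the MEF, 29.51 and 23.01 in the GFP-negative cells, 20.18 in the clusters, 15.78 in the colonies and 6.54, 11.25 and 8.52 in the ESC. The 3 ESC sums lay below those of all other libraries, and the sums of the GFP-negative cells, the clusters and the colonies all lay below the lowest MEF sum. At 1 RPKM or more were 11, 12 and 19 Hox genes in the MEF, 5 and 7 in the GFP-negative cells, 3 in the clusters, 5 in the colonies and 2, 1 and 3 in the ESC.

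The genes that carried these sums differed between libraries. Genes of paralog groups 4 to 8 gave 52.1%, 50.8% and 57.4% of the summed Hox RPKM in the MEF, 22.4% and 49.7% in the GFP-negative cells, 14.5% in the clusters and 55.6% in the colonies. Groups 9 to 13 gave 41.8%, 36.4% and 30.2% in the MEF, 64.4% and 48.6% in the GFP-negative cells, 81.3% in the clusters and 41.9% in the colonies. Outside the MEF 1 gene often led. Hoxa11 gave 45% of the sum in GFP-negative replicate 1, Hoxd10 29.6% in replicate 2 and Hoxa10 33.4% in the clusters, while no Hox gene gave more than 24.4% in a MEF library.

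**Figure D1:**
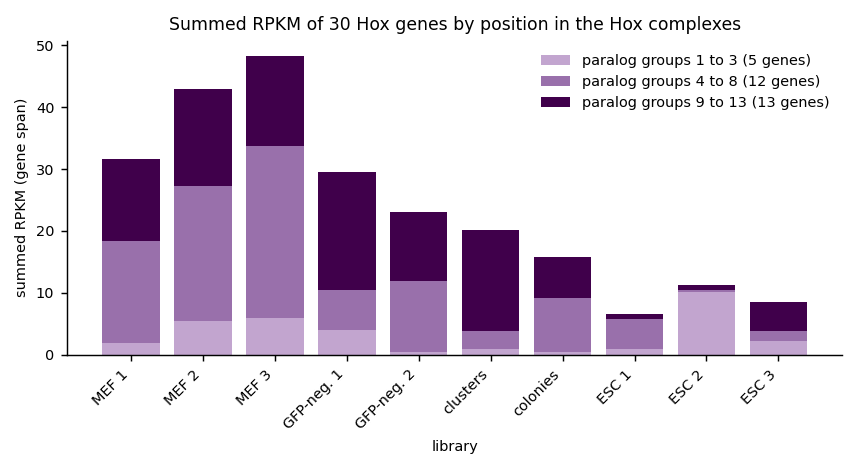
Summed RPKM per kilobase of gene span (y axis) of 30 Hox genes in each of the 10 gene-span libraries (x axis), with the bar divided into paralog groups 1 to 3, 4 to 8 and 9 to 13. The MEF bars reach 31.57 to 48.34, the ESC bars 6.54 to 11.25, and the clusters bar of 20.18 is mostly from groups 9 to 13.

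**Figure D2:**
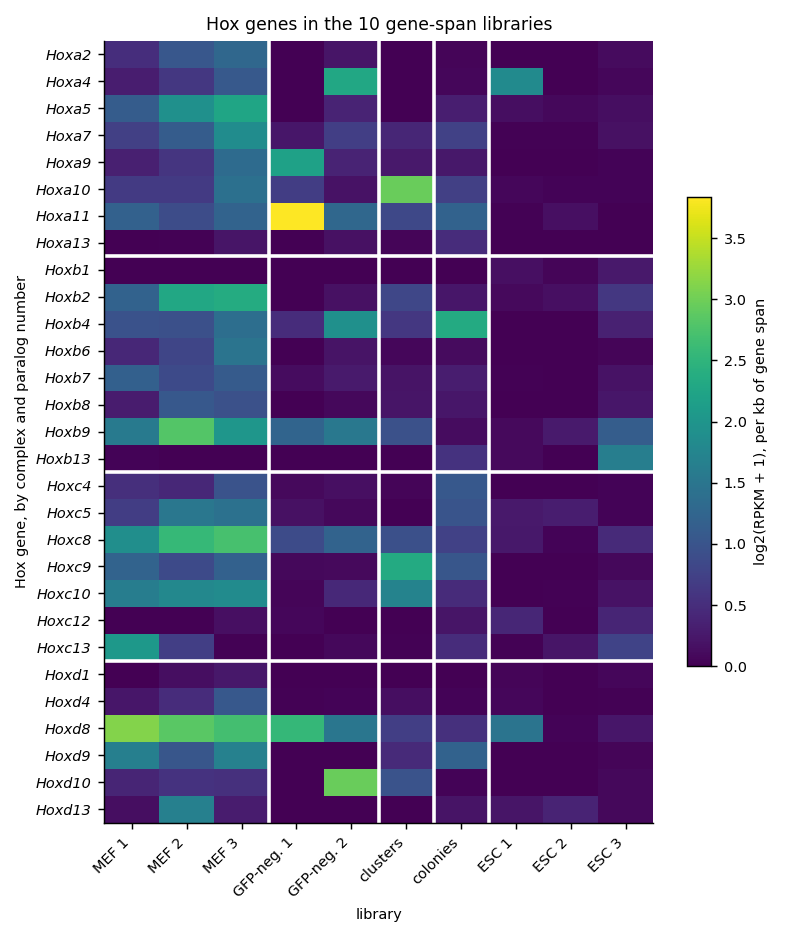
Level of Hox genes (rows, by complex and paralog number) in the 10 gene-span libraries (columns), as log2(RPKM + 1) in colour. MEF columns show many genes at moderate levels, and the GFP-negative, clusters, colonies and ESC columns are dark apart from a few bright genes that differ from library to library, such as Hoxa11 at 13.3 RPKM in GFP-negative replicate 1.

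ESC were set against MEF as the end point against the start of reprogramming. Of the 71 genes 28 passed the filter, and 13 of these were called, 2 higher and 11 lower in ESC, where 15.9% of the 10647 genes tested were called (7.95% higher and 7.97% lower). Without the filter the same number, 13 of 71, were called, against 10.5% of all genes. With a pseudocount of 0.1 in place of 1, 20 of 28 were called, against 24.3%. The median log2 change was −0.98 over the 28 genes and 0.14 over all genes tested. Some Hox genes, such as Hoxa5 and Hoxb7, passed the filter through MEF alone, which favours a fall in the first median. Without the filter the medians were −0.26 over the 71 members and 0.04 over all genes. The 9 fibroblast markers of the table also fell, all 9 of them, to a summed 36.6 to 68.0 RPKM in ESC, against 893 to 2950 in MEF. At 1 RPKM or more were 5, 4 and 8 of the 9 in ESC and all 9 in each MEF library. The part of that loss of fibroblast RNA in the fall of the Hox genes was not tested.

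Of the 30 Hox genes, 21 had every ESC library below every MEF library, as did 17% of all genes, and 2 had every ESC library above, as did 23.9%. Hoxc10, a lumbar and hindlimb gene, was listed at 0, 0.0168 and 0.142 RPKM in ESC, against 2.09, 2.47 and 2.60 in MEF. Its log2 change of −1.69 ± 0.13 (SE, limma adjusted p = 5.86e-05) had the smallest p among the 28 genes. Hoxc8, which patterns the thoracic skeleton, had 0.182, 0.0222 and 0.376 RPKM in ESC, against 2.72, 4.91 and 5.57 in MEF, a log2 change of −2.15 ± 0.23 (limma adjusted p = 0.00038). The groups did not overlap for either gene.

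Hoxd8 was the highest Hox gene of MEF replicates 1 and 2. It had 1.79, 0.0249 and 0.180 RPKM in ESC, against 7.70, 6.2 and 5.42 in MEF (log2 change −2.30 ± 0.40, limma adjusted p = 0.00457), with ESC replicate 1 standing above the other ESC. Within the libraries that list unmeasured genes at exact 0 the change was −2.23 and the call was lost (limma adjusted p = 0.067). Its neighbour Hoxd9 was listed at 0, 0 and 0.0408 RPKM in ESC, against 2.14, 1.04 and 2.21 in MEF (−1.43 ± 0.16, limma adjusted p = 0.000504). Hoxa5, needed for lung and cervicothoracic patterning, had 0.106, 0.0583 and 0.106 RPKM in ESC, against 1.16, 2.78 and 3.78 in MEF (−1.64 ± 0.25, limma adjusted p = 0.00253). Hoxb2, a hindbrain gene, fell by 1.66 and the thoracic gene Hoxb9 by 1.63 on the log2 scale, with limma adjusted p = 0.00474 and 0.0116. Hoxc9, Hoxc5 and Hoxa7 fell by 1.06, 1.01 and 1.17. These calls sat near the size threshold and ended without MEF replicate 1 for Hoxc9 (−0.997), without MEF replicate 3 for Hoxa7 (−0.85), and without MEF replicate 2 (−0.86), MEF replicate 3 (−0.90) or ESC replicate 3 (−0.93) for Hoxc5.

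The remaining Hox genes tested did not pass both thresholds. Hoxb7 missed the size threshold at −0.98 ± 0.10 (limma adjusted p = 0.000298), and Hoxa2 and Hoxa10 did so at −0.90 and −0.86.

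Shown here are the 250 bases upstream of the RefSeq start (GRCm38.p6) of 3 chosen Hox genes. Their windows held no annotated transcript of their own gene. Hoxa5 and Hoxd8 fell in ESC, and Hoxa10 was highest in the clusters. Capitals mark CpG dinucleotides, the sites of DNA methylation.
Hoxa5, chr6:52204588-52204837, minus strand: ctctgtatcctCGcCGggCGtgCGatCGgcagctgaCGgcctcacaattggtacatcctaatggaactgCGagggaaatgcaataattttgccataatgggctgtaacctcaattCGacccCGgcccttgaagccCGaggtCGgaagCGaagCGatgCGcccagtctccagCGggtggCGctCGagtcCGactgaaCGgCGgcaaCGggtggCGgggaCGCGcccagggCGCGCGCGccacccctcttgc
Hoxd8, chr2:74704365-74704614, plus strand: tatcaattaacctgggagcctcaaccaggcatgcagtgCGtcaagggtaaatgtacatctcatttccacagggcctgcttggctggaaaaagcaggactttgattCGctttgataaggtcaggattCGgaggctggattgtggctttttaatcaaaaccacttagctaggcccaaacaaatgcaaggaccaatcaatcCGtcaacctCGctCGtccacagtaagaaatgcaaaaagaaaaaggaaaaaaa
Hoxa10, chr6:52240855-52241104, minus strand: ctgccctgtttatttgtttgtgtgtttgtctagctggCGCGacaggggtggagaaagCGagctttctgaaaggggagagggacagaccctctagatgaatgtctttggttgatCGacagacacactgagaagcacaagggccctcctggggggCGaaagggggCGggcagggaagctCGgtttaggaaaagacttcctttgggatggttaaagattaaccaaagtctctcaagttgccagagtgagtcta
The Hoxa5 window held 28 CpG, a number reached by 7.26% of 27025 RefSeq promoters, while the windows of Hoxd8 and Hoxa10 held 6 and 7, reached by 50.5% and 46.6%. A promoter was at hand for 47 of the 71 genes, with a median of 13 CpG, and for all genes the median was 6.

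The same windows were searched on both strands for motifs of the members' own families. The Pbx-Hox motif TGATTNAT was in 3 of 47 member windows and 2.98% of all windows, the Meis motif TGACAG in 4 and 15.9%, the T-box site AGGTGTGA in 1 (Hoxd9) and 1.14%, and the homeodomain core TAATTA in 3 (Msx2, Prrx1 and Tbx6) and 4.91%. None of these letters occurred in the 3 windows printed above. Such a match is a description of the letters and not a binding site.

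Outside the Hox complexes, the homeodomain factor Prrx1 had the largest fall of the members tested in RPKM. Prrx1 marks mesenchyme of limb bud and face. It had 0.195, 0.261 and 0.143 RPKM in ESC, against 10.9, 10.0 and 4.20 in MEF, a log2 change of −2.88 ± 0.33 (limma adjusted p = 0.000593). Its groups were far apart, although MEF replicate 3 held less than the other MEF.

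The genes that rose in ESC were Tbx3 and Six4. Tbx3, a T-box repressor of limb and mammary development and a member of the stem cell network, had 5.74, 4.21 and 5.65 RPKM in ESC, against 1.15, 1.49 and 1.69 in MEF (1.34 ± 0.23, limma adjusted p = 0.00426). Six4, a homeodomain factor of muscle and sensory progenitors that works with Eya coactivators, had 6.25, 2.67 and 3.31 RPKM in ESC, against 1.48, 0.193 and 0.395 in MEF (1.60 ± 0.33, limma adjusted p = 0.00938). Neither gene overlapped between the groups. The span of Six4 overlaps Mnat1 in the annotation, whose reads could enter its value. Within the 7 libraries that list unmeasured genes at exact 0, neither passed the test, with values of 1.36 for Tbx3 and 1.58 for Six4.

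Pbx2, a widely expressed Hox cofactor, had 3.31, 6.12 and 12.4 RPKM in ESC, against 1.3, 2.76 and 6.72 in MEF, with overlap (0.88 ± 0.51, limma adjusted p = 0.252). Tbx2, the nearest paralog of Tbx3, had 0.280, 0.404 and 0.0425 RPKM in ESC, against 0.484, 0.420 and 2.62 in MEF, and was not called (limma adjusted p = 0.331).

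**Figure D3:**
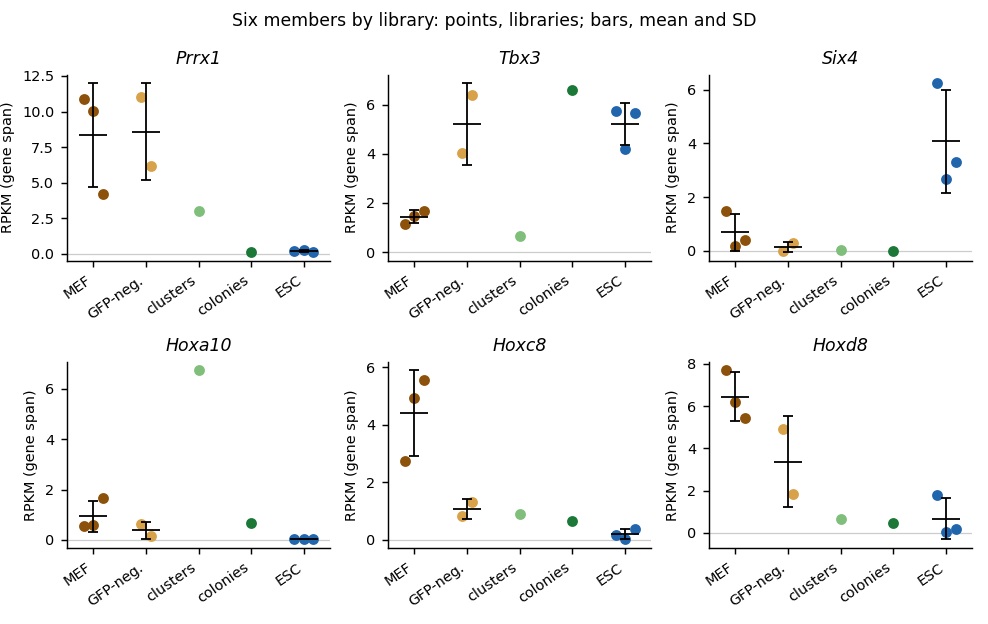
RPKM per kilobase of gene span (y axes) of Prrx1, Tbx3, Six4, Hoxa10, Hoxc8 and Hoxd8 in MEF, GFP-negative cells, clusters, colonies and ESC (x axes); points are libraries and black bars the mean and SD where a group had more than 1 library. Prrx1 stays near the MEF level in the GFP-negative cells, at 11.0 and 6.17 RPKM, whereas Tbx3 stands at 4.03 and 6.40 there, near the ESC level, and drops to 0.662 in the clusters.

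A value per kilobase of gene span places long genes under the filter of 1 RPKM, so the comparison was repeated in RPM (reads scaled to depth only), with the length multiplied out. This was chosen after the values had been seen. Genes were tested where at least 2 libraries reached 1 RPM. Some members, such as Hoxa2, Hoxa5 and Hoxd4, passed this filter through MEF alone, which favours a fall. No count without a filter was made in RPM. On that scale 56 members were tested and 29 were called, 3 higher and 26 lower in ESC, where 21.2% of 12420 genes were called (10.1% higher and 11.1% lower). All 13 members called in RPKM were among them, and 12 of the 16 others had been under the RPKM filter.

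Tbx15, a factor of skeletal and skin mesenchyme, led these. It had 0.376, 5.20 and 2.99 RPM in ESC, against 83.8, 98.9 and 91.1 in MEF (log2 change −4.83 ± 0.68, limma adjusted p = 0.000421). Tbx5, which specifies forelimb and heart, had 0, 0 and 0.350 in ESC, against 7.84, 5.83 and 14.4 RPM in MEF (−3.14 ± 0.55, limma adjusted p = 0.00191). Both genes were low in every ESC library and above that in every MEF library.

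The Hox cofactors moved in different directions. Meis1 fell to 0.227, 0.747 and 1.80 RPM in ESC, against 11.9, 22.0 and 42.3 in MEF (−3.69 ± 0.82, limma adjusted p = 0.00794). Meis3 fell to 0, 0.557 and 2.91 RPM, against 6.63, 8.54 and 47.9 in MEF (−3.06 ± 0.96, limma adjusted p = 0.0405). Pbx4, known from testis, rose to 3.62, 6.89 and 10.8 RPM in ESC, against 0.497, 0.277 and 1.33 in MEF (2.20 ± 0.57, limma adjusted p = 0.018). Meis2 and Pbx3 were not called (limma adjusted p = 0.267 and 0.377). Prrx2, the paralog of Prrx1, fell by 2.97, the kidney and face factor Six2 by 2.88 and the epicardial and somite factor Tbx18 by 2.38 on this log2 scale.

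GFP-negative cells were set against MEF to see what fibroblasts exposed to VC6TF kept of the pattern. The MEF are the same libraries as in the comparison above. Of the 28 genes 8 were called, 1 higher and 7 lower, where 7.62% of all genes tested were called (3.53% higher and 4.09% lower). Without the filter 8 of 71 were called, against 4.73% of all genes, and with a pseudocount of 0.1 10 of 28, against 13.1%. With the library medians made equal, all genes split into 558 higher and 337 lower calls, in place of 376 and 435, and the members into 1 higher and 6 lower. That scaling shifted single libraries by up to 0.34 on the log2 scale. The median log2 change was −0.76 over the members tested and −0.13 over all genes tested. Without the filter, which some Hox genes passed through MEF alone, the medians were −0.10 and −0.05. Of the fibroblast markers 4 of 9 fell, with sums of 316 and 393 RPKM in the GFP-negative cells, against 893 to 2950 in MEF, and 9 of 9 at 1 RPKM or more in both groups. Single markers of other cells were higher in the GFP-negative libraries, with 1 gene called higher in each of the neural (5 genes in the table), macrophage and blood (6), keratinocyte (4) and endoderm (4) lists, and 1 macrophage gene called lower. The neural sum was 18.2 and 54.4 RPKM in the GFP-negative cells, against 5.5 to 12.8 in MEF, with 1 and 4 of the genes at 1 RPKM or more, and Nes alone gave 17.4 and 39.9. The macrophage and blood sum was 69.6 and 53.9 RPKM, against 20.1, 31.7 and 210 in MEF, with 1 and 2 genes at that level. Cd14 alone gave 69.3 and 52.3 of it, whereas Lyz2 had 0 and 0.0194 RPKM in the GFP-negative cells, against 14.96, 22.6 and 97.2 in MEF. The keratinocyte sum was 7.44 and 16.1 RPKM, against 0.408, 1.06 and 5.66 in MEF, with 2 genes at that level in each GFP-negative library. The endoderm sum was 2.32 and 6.31 RPKM, against 0.181 to 0.931 in MEF, with 1 and 2 genes at that level, mostly from Foxa2 (2.08 and 5.25). The part of these cells in the Hox values was not tested.

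Of the 30 Hox genes, 17 had both GFP-negative libraries below every MEF library, as did 26.7% of all genes, and 1, Hoxa11, had both above, as did 12.1%. Among the 7 genes that fell were Hoxc10, Hoxd9, Hoxb2, Hoxa5, Hoxc8 and Hoxc5. Hoxc10 had 0.0367 and 0.354 RPKM in the GFP-negative cells, against 2.09, 2.47 and 2.60 in MEF (log2 change −1.51 ± 0.14, limma adjusted p = 0.000452). Hoxd9 was listed at 0 in both GFP-negative libraries, against 1.04 to 2.21 RPKM in MEF (−1.45 ± 0.18, limma adjusted p = 0.00186). Both genes kept the call without any single library and within the libraries listing exact 0. Hoxb2 was listed at 0 and had 0.132 RPKM, against 1.3, 3.93 and 4.15 in MEF (−1.87 ± 0.33, limma adjusted p = 0.0106).

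The other calls were weaker. Hoxa5 was listed at 0 and had 0.308 RPKM in the GFP-negative cells (−1.57 ± 0.28, limma adjusted p = 0.0116), and Hoxc8 had 0.826 and 1.33 RPKM (−1.35 ± 0.25, limma adjusted p = 0.0146), both below every MEF library. Without GFP-negative replicate 1, which left a lone library assumed to vary like the other groups, 3 members were called (Hoxc10, Hoxd9 and Tbx3), and the changes of Hoxb2, Hoxa5 and Hoxc8 were −1.78, −1.38 and −1.17. The call of Hoxc5 (−1.09 ± 0.22) ended without either GFP-negative library (−1.14 and −1.04) and without MEF replicate 2 or 3 (−0.93 and −0.98). Within the libraries listing exact 0, 2 members were called.

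Tbx3 had 4.03 and 6.40 RPKM in the GFP-negative cells, above all 3 MEF libraries at 1.15, 1.49 and 1.69 (1.33 ± 0.26, limma adjusted p = 0.0165), and lost the call in 6 of 16 alternatives with values of 1.24 (without MEF replicate 1) to 1.40. Antisense RNA of Tbx3 overlaps its span in the GRCm38 annotation, and the strand of reads is not given in the sources used here.

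Prrx1 did not follow the Hox genes. It had 11.0 and 6.17 RPKM in the GFP-negative cells, against 10.9, 10.0 and 4.20 in MEF, ranges that overlapped (0.08 ± 0.37, limma adjusted p = 0.934). Tbx15 had 26.4 and 14.9 RPM, against 83.8, 98.9 and 91.1 in MEF, all lower but not called (−2.14 ± 0.76, limma adjusted p = 0.0997). Tbx5, at 0.792 and 0 RPM, was called lower on that scale (−2.87 ± 0.61, limma adjusted p = 0.016), where 8.48% of genes were called.

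**Figure D4:**
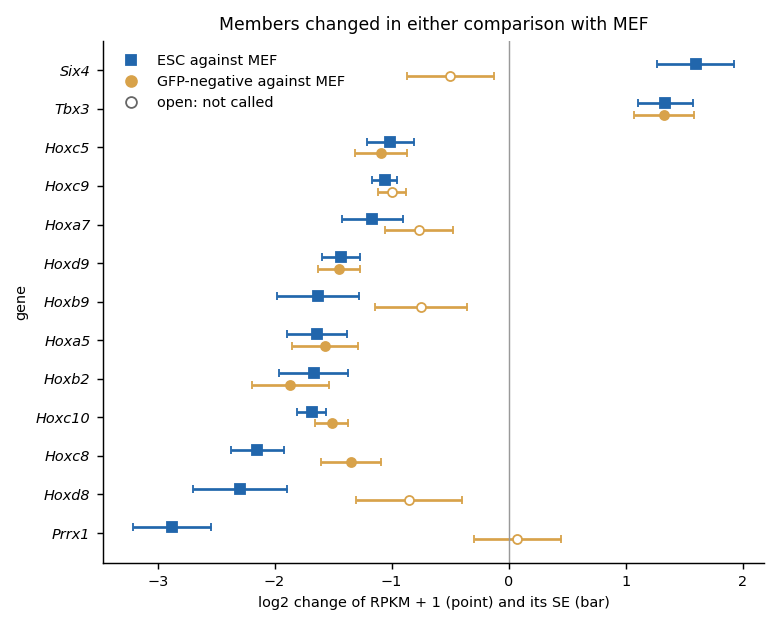
Log2 change of RPKM + 1 (x axis, point and SE bar) of members called in either comparison with MEF (y axis), for ESC against MEF (squares) and GFP-negative cells against MEF (circles), which share the MEF libraries; open symbols were not called. Prrx1 stands at −2.88 in ESC and 0.08 in GFP-negative cells, Six4 at 1.60 and −0.50, and Tbx3 at 1.34 and 1.33.

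Replicates of 1 group could differ widely in single members. Between the GFP-negative libraries 8 of 28 members tested lay at least 1 log2 unit apart (28.6%), near the 23.2% of all genes tested. Between MEF replicates 1 and 3 there were 9 (32.1%, against 19.1% of genes). MEF replicates 1 and 2 had 4 (14.3%, against 3.3%), and replicates 2 and 3 had 5 (17.9%, against 17.4%). In ESC, replicates 1 and 2 had 4 (14.3%, against 6.7%) and 1 and 3 had 4 (14.3%, against 14.4%). ESC replicates 2 and 3 had 2 (7.1%, against 15.8%). Hoxa11, a gene of the forearm and uterus, had 13.3 RPKM in GFP-negative replicate 1 and 1.44 in replicate 2, or about 542 and 54.8 estimated reads. Hoxa9 had 3.58 and 0.303 RPKM. Hoxd10, a hindlimb gene that reached 1 RPKM in GFP-negative replicate 2 only, was listed at 0 in replicate 1 and had 6.81 RPKM, about 759 estimated reads, in replicate 2, where Hoxa4 (0 and 3.91), Hoxb4 (0.399 and 2.80) and Tbx2 (0.384 and 3.53) were also the higher. In MEF, Hoxa11 had 1.28, 0.852 and 1.32 RPKM and Hoxd10 0.315, 0.473 and 0.453. Hoxa11 shares its span with an annotated antisense gene and Hoxd10 with Hoxd11, whose reads could not be told apart.

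Set against ESC, the GFP-negative cells differed in 6 of 28 members, 4 higher and 2 lower, where 22.7% of all genes tested were called (8.35% higher and 14.3% lower). Without the filter 5 of 71 were called, against 14.5% of all genes, and with a pseudocount of 0.1 9 of 28, against 36.3%. With medians made equal all genes split into 1326 higher and 927 lower calls, in place of 889 and 1526, and the members into 7 higher and 1 lower. Prrx1, at 11.0 and 6.17 RPKM against 0.143 to 0.261 in ESC, was 2.95 ± 0.37 higher on the log2 scale (limma adjusted p = 0.00078). Six4, at 0.00686 and 0.280 RPKM against 2.67 to 6.25 in ESC, was at −2.10 ± 0.37 (limma adjusted p = 0.00375). Both calls held in all 16 alternative analyses of this comparison.

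Other calls rested more on single libraries. Hoxa11 was 2.5 ± 0.58 higher than in ESC (limma adjusted p = 0.0122) with 13.3 RPKM in 1 library. Hoxd8, at 4.90 and 1.84 RPKM, was 1.45 ± 0.45 higher (limma adjusted p = 0.04) and its lower value lay just above ESC replicate 1, the ESC values being 1.79, 0.0249 and 0.180. Hoxb4, which acts in blood stem cells, was 1.09 ± 0.36 higher (limma adjusted p = 0.0492), but 0.37 without GFP-negative replicate 2. Hoxb4 and Hoxd8 lost the call in 12 and 10 of 16 alternatives. Without GFP-negative replicate 1 Hoxd8 stood at 0.92. Leaving out single ESC libraries also ended these calls, with values of 1.03 to 1.21 for Hoxb4 (replicate 1, 2 or 3) and 1.17 and 1.28 for Hoxd8 (replicate 2 or 3). Tbx3 stood at −0.01 ± 0.26 between GFP-negative cells and ESC (limma adjusted p = 0.976). In RPM 10 of 56 members were called, where 28.9% of genes were, and among them Tbx15 was 2.69 ± 0.76 higher than in ESC (limma adjusted p = 0.0203).

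The clusters had 1 library and were described without a test. Set against the GFP-negative mean, 10 of 28 members lay 1 or more log2 units away, 3 higher and 7 lower, as did 24.6% of all genes tested (11.4% higher and 13.2% lower). Set against the MEF mean, 13 did, 2 higher and 11 lower, as did 30.5% (10.8% higher and 19.7% lower). Hoxa10, a gene of the proximal hindlimb and uterus, stood at 6.73 RPKM in the clusters, about 578 estimated reads, against 0.627 and 0.140 in GFP-negative cells and 0.567, 0.577 and 1.66 in MEF. Hoxc9, a thoracic gene, stood at 4.10 RPKM, about 270 estimated reads, against 0.0609 and 0.0653 in GFP-negative cells and 1.32, 0.813 and 1.28 in MEF. Both lay above all other libraries of the gene-span set, with log2 differences from the GFP-negative mean of 2.51 and 2.26.

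Hoxc10, next to Hoxc9, had 2.28 RPKM in the clusters, within the MEF range of 2.09 to 2.60 and above both GFP-negative libraries. Prrx1 had 3.02 RPKM there, below every GFP-negative and MEF library (log2 differences −1.20 and −1.13). Tbx3 had 0.662 RPKM, the lowest of the gene-span libraries. Under the filter, Meis1 had 85.2 RPM, the highest of the 10 libraries, and Tbx18 had 23.4, against 0.813 and 5.71 in GFP-negative cells. Single markers of other cells were high in the same library. The 4 endothelial genes summed to 24.6 RPKM, against 0.478 and 0.261 in GFP-negative cells, with only Kdr (24.6) at 1 RPKM or more. The 6 muscle and heart genes summed to 25.0, against 0.263 and 2.43, with only Des (24.9) at that level. The 4 endoderm genes summed to 5.18, against 2.32 and 6.31, with 3 at that level (Gata6 2.90, Gata4 1.14 and Foxa1 1.08). The part of such cells in the Hox values of the clusters was not tested.

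The colonies, also 1 library, lay far from the clusters. Of 28 members 9 lay 1 or more log2 units from the clusters, 5 higher and 4 lower, as did 39.9% of all genes tested (27.3% higher and 12.6% lower). Prrx1 had 0.134 RPKM in the colonies, against 3.02 in the clusters, and Hoxa10, Hoxc9 and Hoxc10 had 0.660, 1.03 and 0.384, against 6.73, 4.10 and 2.28. Tbx3 stood at 6.59 RPKM, against 0.662 in the clusters, and Pbx2 at 7.11, against 1.22. Hoxb4 had 4.10 RPKM, the highest of the 10 libraries, against 0.534 in the clusters. Its span overlaps Hoxb3 in the annotation, whose reads could enter the Hoxb4 value.

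Against the MEF mean 11 members lay that far, 3 higher (Hoxb4, Pbx2 and Tbx3) and 8 lower, as did 21.6% of genes (14.3% higher and 7.3% lower). Against the ESC mean 7 did, 4 higher (Hoxa11, Hoxb4, Hoxd9 and Meis3) and 3 lower (among them Six4), as did 24.1% of genes (14.9% higher and 9.24% lower). Six4 was listed at the placeholder 0.001 in the colonies, against 6.25, 2.67 and 3.31 RPKM in ESC. Hoxd9 had 1.3 RPKM in the colonies, near the MEF values of 2.14, 1.04 and 2.21, against 0, 0 and 0.0408 in ESC. Msx2, a BMP-responsive homeodomain gene that had missed the filter, had 2.31 RPKM, against 0.0486, 0.640 and 0.209 in ESC. Endoderm markers summed to 33.9 RPKM over 4 genes in the colonies, against 0.0750 to 0.197 in ESC. The 9 fibroblast markers summed to 95.1, against 36.6 to 68.0 in ESC, with 8 at 1 RPKM or more. Among these Pdgfra had 8.45, against 0.0652 to 0.262 in ESC, while Fn1 was lower, at 3.11 against 12.6 to 13.9. The macrophage and blood sum was 23.9 over 6 genes, against 3.46 to 11.2 in ESC. The endothelial sum was 6.13 over 4, against 0.716 to 0.896. The neural sum was lower, at 1.14 over 5, against 4.53 to 8.69. The part of such cells in these values was not tested.

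CiPSC lines 6 and 11 were compared with ESC replicate 4, all in RPKM per kilobase of exon, with the spread pooled over all groups. In limma 0 of the 28 members were called, where 0.16% of all genes tested were, and 0 had an unadjusted p under 0.05, as did 507 of 10647 genes. Without the filter 0 of 71 were called, where 0.329% of all genes were. At an unadjusted p under 0.05 there were 7 of 71 members, and 1303 of 15176 genes. With a pseudocount of 0.1 the count was again 0 of 28, against 0.0282% of genes. The summed Hox RPKM was 2.54 and 2.43 in the CiPSC lines and 4.67 in ESC replicate 4, and no Hox gene reached 1 RPKM in either line.

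Tbx3 was the highest member, at 12.0 and 12.0 RPKM in the CiPSC lines, against 18.7 in ESC replicate 4 (log2 change −0.60 ± 0.35, limma adjusted p = 1). Pbx2 had 6.91 and 7.03 RPKM, against 4.96 (0.42 ± 0.77), and Six4 2.86 and 2.98, against 2.18 (0.30 ± 0.50), both with limma adjusted p = 1. Between the 2 lines 0 of 28 members lay 1 or more log2 units apart. Meis2 had 0.105 and 0.154 RPKM in the CiPSC lines, against 1.11 in ESC replicate 4, and Prrx1 0.0157 and 0.00462, against 0.478. Prrx2 had 0.383 and 0.240 RPKM, against 0.932, and Hoxc13, a hair follicle and tail gene, 0.466 and 0.554, against 1.21. Other low members lay higher in both lines, such as Dlx3 at 0.402 and 0.287 RPKM, against 0.0577, and Pbx4 at 0.993 and 0.839, against 0.533. The lone ESC library gives no spread of its own for any of these differences. The fibroblast marker sum was also lower in the lines, at 98.1 and 96.1 RPKM over 9 genes, against 147 in ESC replicate 4. Vim had 41.6 and 48.0 RPKM in the lines, against 89.3. Fn1 (54.7 and 47.2, against 46.8) and Twist1 (0.347 and 0.318, against 0.246) were higher in the lines, and the other markers lower. Of the 9 markers 0 were called, and the part of feeder RNA was not tested.

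**Figure D5:**
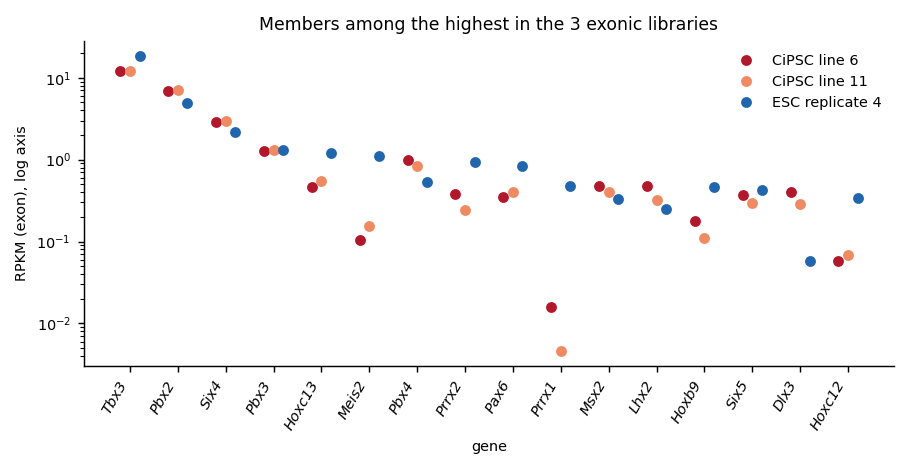
RPKM per kilobase of exon (y axis, log scale) of members among the highest in CiPSC line 6, CiPSC line 11 or ESC replicate 4 (x axis), 1 point per library. The lines stand close together for most genes, but not for Prrx1. Prrx1 at 0.0157 and 0.00462 and Meis2 at 0.105 and 0.154 lie furthest below the ESC values of 0.478 and 1.11.

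The Dlx, Lhx, Msx and Pax families had low RPKM values. No Dlx, Lhx, Msx or Pax gene passed the filter, and their highest values in the gene-span libraries were 1.59 RPKM for Dlx (Dlx2 in GFP-negative replicate 2), 0.378 for Lhx (Lhx6 in the colonies), 2.31 for Msx (Msx2 in the colonies) and 0.331 for Pax (Pax1 in MEF replicate 3). Dlx2, a craniofacial and forebrain factor, had 0.770 and 1.59 RPKM in GFP-negative cells, against 0.282, 0.446 and 0.317 in MEF and 0 to the placeholder 0.001 in ESC. In RPM it was called higher in GFP-negative cells than in ESC (2.25 ± 0.51, limma adjusted p = 0.00711). The eye and brain factor Pax6 was called lower there (−2.11 ± 0.68, limma adjusted p = 0.0368), at 0.361 and 0.290 RPM in GFP-negative cells against 7.59, 4.71 and 2.79 in ESC. Low RPKM did not always mean few reads, since Pax8, with a long span, had an estimated 62.7 to 128.4 reads in 6 of the gene-span libraries, and Msx2 had about 137 in the colonies. In all, 33 members stayed under 1 RPKM in all 10 gene-span libraries.

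Genes that work with the patterning factors were read from 3 lists chosen with earlier results known. The lists count symbols, and some genes stand in them under an old and a new symbol. Of 25 symbols of partners of the sine oculis, LIM and TALE factors, 22 were in the table and 9 were tested. In ESC against MEF, where 15.9% of all genes were called, 1 rose, Tgif1, a TALE repressor (1.51 ± 0.28, limma adjusted p = 0.00608), and 2 fell, the LIM-only protein Lmo4 (−1.26 ± 0.27) and the Pbx-interacting protein Pbxip1 (−1.41 ± 0.33). Lmo4 alone fell in GFP-negative cells against MEF (−1.18 ± 0.30, limma adjusted p = 0.046), where 7.62% of all genes were called. The list's median log2 change was 0.39 in ESC and −0.55 in GFP-negative cells, against 0.14 and −0.13 over all genes.

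Of 38 symbols of upstream regulators of Hox genes, 34 were in the table and 29 were tested. In ESC against MEF 7 rose and 4 fell, where 7.95% of all genes tested rose and 7.97% fell, and the median log2 change was 0.46, against 0.14 over all genes. The polycomb genes Phc1 (3.04 ± 0.30), Cbx7 (2.05 ± 0.23) and Suz12 (1.53 ± 0.28) and the histone methylation cofactor Ash2l (1.79 ± 0.26) were among those that rose. The retinoic acid hydroxylase Cyp26b1 (−1.89 ± 0.15), the TGF-beta ligand Gdf11 (−1.66 ± 0.28), which shifts trunk Hox genes to a posterior pattern, and the polycomb gene Cbx8 (−1.06 ± 0.17) were among those that fell. In GFP-negative cells against MEF 1 rose and 2 fell, where 3.53% of genes rose and 4.09% fell (medians −0.39 and −0.13). Cyp26b1 rose, with 11.8 and 13.2 RPKM in GFP-negative cells, against 3.24, 3.03 and 2.45 in MEF (1.79 ± 0.17, limma adjusted p = 0.000516), while Men1, a subunit of complexes that methylate histone H3 at Hox genes, fell (−1.91 ± 0.38, limma adjusted p = 0.0182), as did Cbx8 (−1.02 ± 0.19).

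Of 38 symbols of further positional factors of mesenchyme, 29 were in the table and 19 were tested. In ESC against MEF 8 fell and 1, the forebrain and epiblast factor Otx2, rose (2.22 ± 0.62), where 7.97% of all genes fell and 7.95% rose. The median log2 change was −1.12, against 0.14 over all genes. Twist1, a mesenchymal basic helix-loop-helix factor, fell by 4.08, Foxc2 by 2.53, the Iroquois factor Irx5 by 1.48 and Nr2f2 by 1.47 on the log2 scale. In GFP-negative cells against MEF 4 rose and 1 fell, where 3.53% of genes rose and 4.09% fell (medians −0.12 and −0.13). Irx3 had 19.2 and 17.0 RPKM in GFP-negative cells, against 1.38, 3.14 and 5.32 in MEF (2.27 ± 0.37, limma adjusted p = 0.00752), and the limb factor Hand2 had 6.52 and 11.0, against 1.57, 2.34 and 3.97 (1.44 ± 0.31, limma adjusted p = 0.0225). Twist2 (1.48 ± 0.14) and Nr2f2 (1.05 ± 0.23) rose as well, and Foxc2 fell (−1.98 ± 0.41). Between CiPSC and ESC 0 genes of the 3 lists were called.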

How the data were processed

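Per the file headers, the authors deposited RPKM, 1 column a library. The submitters' processing notes name TopHat 1.3.0 and the build mm9. Counter, annotation and strand handling were not given in the sources used here. Of the genes' table, which held 15184 entries, the 8 sharing an identifier were left out. Multiplied by gene span from a GRCm38 annotation (found for 88.7% of genes, used for length only), low values gave whole reads for 64.6 to 68.3% at a tolerance of 0.05 of a read in 10 libraries, and for 12.2 to 13.1% in the CiPSC lines and ESC replicate 4, which were taken as exonic. This step gave the estimated reads, whose precision covers counting only, and RPM. For 32 of the 71 members the estimates were whole within 0.15 reads, and for the others they are approximate. By the value for unmeasured genes, 7 libraries hold exact 0 and 3 hold 0.001 (MEF replicate 3, the colonies and ESC replicate 3).

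The deposited RPKM, as log2(RPKM + 1), were fitted in R 4.3.3 with limma 3.58.1 over all 13 libraries, with a variance trend, ESC replicate 4 as its own level, 6 residual degrees of freedom and Benjamini-Hochberg adjustment over 10647 genes. The script was tested on simulated data. The members, lists and tests were chosen with earlier results of these data known. Genes named are, per family, the 4 with the highest group mean, every called member, Tbx3, members past the fold in the clusters against both GFP-negative cells and MEF, and up to 4 called genes per list and direction by p; Hoxa2, Hoxa4, Hoxa9, Hoxc13 and Tbx5, and the single markers, fall outside this rule and were named after their values were seen. Other annotated genes overlap 36 of the 71 members, and their reads could enter the member values. Among these members are Hoxa4 and Hoxa5 (both with Hoxa3), Hoxb4 (Hoxb3), Hoxa10 (Gm52902) and Hoxc9 (Gm36878). A few genes that enter the counts are not reported here by name. Errors of log2 changes are standard errors.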

Additional observations from a re-analysis of the deposited data

How the results depend on the processing

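Each comparison was recomputed with a pseudocount of 0.1, other filters, other library sets and scalings, and without each replicate. Values of ESC against MEF were 20 members and 2590 genes called with the pseudocount of 0.1, 29 and 2629 in RPM with their own filter, and 812 genes with the replicate block. The calls of Hoxa5, Hoxb2, Hoxb9, Hoxc10, Hoxc8, Hoxd9 and Prrx1 held in all 17 alternatives, and no call changed direction. In GFP-negative against MEF the members called were 5 in the 10 gene-span libraries alone, 2 in those with exact 0 and 2 in the 6 libraries numbered 1 and 2 with no block; genes called were 1391 (pseudocount 0.1), 453, 343, 353 and 376 (no length-scale term). In GFP-negative against ESC the members were 3, 2 and 2 in the same 3 sets and 10 in RPM, and genes 3861 with the pseudocount of 0.1. Those 3 sets lost member calls and gained none, and their counts over all genes are not given here. In CiPSC against ESC genes called were 3 (pseudocount 0.1), 50 (no filter), 44 (filter of 1 library) and 9 (no length-scale term).

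Without single replicates, members called ranged from 11 to 13, 3 to 10, 4 to 6 and 0 to 0 in ESC against MEF, GFP-negative against MEF, GFP-negative against ESC and CiPSC against ESC, and genes called from 1330 to 1672, 562 to 1499, 2097 to 2916 and 10 to 12. The widest range was set by GFP-negative replicate 1 (3 members without it) and replicate 2 (1499 genes without it).

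With the replicate block on the 6 libraries numbered 1 and 2, members called were 10, 0 and 2 and genes 812, 141 and 1500 in the first 3 comparisons. Same-numbered libraries shared no strong deviation over the whole set of genes (r across genes −0.0673, −0.0417 and 0.0826). Such a correlation cannot tell whether they came from the same experiment, so it does not settle whether the numbers pair them.

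In the single libraries, members past the fold with the pseudocount of 0.1 were 16 (clusters against GFP-negative), 23 (clusters against MEF), 17 (colonies against clusters), 17 (colonies against MEF) and 18 (colonies against ESC). In RPM they were 22, 15, 17 and 15 in the last 4 of these, and 7 in clusters against MEF with medians made equal. The share over all genes was not computed at these settings. The counts therefore show how far they depend on the setting, and nothing particular to the members. A pseudocount of 1 shrinks the change of genes near 0, and depth limits those listed at 0. The block and the smaller sets also leave fewer libraries in the fit, and for the other settings the cause of these differences was not tested.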
